A study of Mus musculus with 25 samples.

Results

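The 9 genes described here encode channels, or a channel subunit, that set the resting potential, the repolarisation and the pacemaker activity of heart cells: Kcnj3, Kcnj5, Kcnq1, Kcnh2, Kcnd2, Kcnd3, Kcnip2, Hcn2 and Hcn4. They were chosen by name, not by a rule on measured values, though with earlier results of these data known. No voltage-gated sodium channel gene is among them. Each gene was read from a probe set annotated to it alone, and every one of the 9 had 1 such probe set. They were 9 of the 19938 genes that had a probe set of their own. The array was the Affymetrix Mouse Gene 1.0 ST, and the RNA came from primary cultures of neonatal mouse cardiac myocytes. TG myocytes came from transgenic mice in which the mlc2v promoter, a promoter of ventricular myocytes, drives overexpression of the repressor CHF1/Hey2 in the myocardium, and WT myocytes came from wild type mice. There were 5 cultures of WT and 6 of TG myocytes kept free of serum. A further 7 cultures of each genotype were exposed to 20% fetal bovine serum for 24 h, serum being a hypertrophic stimulus for these cells. The comparisons ask whether overexpression of CHF1/Hey2, or serum, goes with a different level of channel transcripts.

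In heart muscle, outward potassium currents end the action potential and hold the membrane at rest, and an inward current through cyclic nucleotide-gated channels drives spontaneous beating. Kcnj3 and Kcnj5 encode the subunits of the channel that acetylcholine opens through G protein βγ subunits, which slows the atria and the sinus node. Kcnq1 and Kcnh2 encode the pores of the slow and the rapid delayed rectifier, Kcnd2 and Kcnd3 the pores of the fast transient outward current, and Kcnip2 the accessory subunit KChIP2 that carries those pores to the surface. Hcn4 is the main pacemaker channel of the sinus node, and Hcn2 is its relative in working muscle. Transcript levels of many of these genes differ between atrium, ventricle and conduction tissue in the intact heart, and such cultures can hold cells of each.

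Hey2, the overexpressed gene, checked the labels. It was higher in TG than in WT myocytes by 1.58 on the log2 scale without serum (SE 0.26) and by 1.81 with serum (SE 0.20), and the genotypes did not overlap in either set. The unadjusted p of Hey2 from limma was 6.5e-05 without serum and 2.7e-07 with serum. After adjustment over all probe sets, p from limma was 0.853 without serum and 0.00972 with serum. The paper, which called single genes by a p cutoff, reports Hey2 alone as different between the genotypes without serum. The deposited values are log2 intensities without a read depth, and precision depends on how many arrays there are. The arrays with serum stood on another scale than those without: the median value per array was 5.21 to 5.36 with serum and 4.99 to 5.09 without, and the median residual SD was 1.52 times as large. TG and WT myocytes were therefore compared within a set, and serum was examined by the percentile of a gene within its own array. Serum and this difference in scale cannot be told apart. The 15 sarcomere genes of the myocyte marker list were bright in every culture, with list means of 10.3 to 12.1 on the log2 scale. Fibroblast markers were bright as well, with list means of 8.29 to 9.55, and endothelial list means were 5.29 to 6.61. Such intensities do not measure the share of a cell type. The paper reports a high purity of myocytes in each preparation, by immunostaining of sarcomeric myosin. Cultures were independent preparations, but whether they came from separate litters is not stated in the sources used here, and a p here reflects no more than the variation among them.

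No channel gene of the 9 passed the adjusted test between TG and WT myocytes in either set. Without serum, 0 of 9 passed at an adjusted p under 0.05 (limma, Benjamini-Hochberg over 35557 probe sets), where 0% of all probe sets passed. Hey2 itself, at a log2 difference of 1.58, did not pass the adjusted test in this set (limma unadjusted p = 6.5e-05, adjusted p = 0.853). A gene not called there is therefore not shown to be unchanged. At an unadjusted p under 0.05 there was 1 of 9, Kcnd3, lower in TG, against 5.64% of all probe sets, 2.31% higher and 3.33% lower in TG. With serum, 0 of 9 passed the adjusted test, where 0.00844% of all probe sets did, and 1 of 9, Kcnh2, had an unadjusted p under 0.05, higher in TG, against 10.7% of all, 4.39% higher and 6.31% lower in TG. Both of these unadjusted results were lost when the arrays were quantile normalized again, in 1 fit over 25 arrays and with the culture number as a replicate block, and that of Kcnd3 with median centring as well. In no channel gene were the genotypes without overlap, as they were in 0.402% of probe sets without serum and 0.256% with serum. The log2 difference of TG from WT was above 0 for 4 of the 9 genes without serum, with a median of -0.0011, and for 7 of the 9 with serum, with a median of 0.097. Over all 19938 genes the medians were -0.0083 and -0.016, and 45.2% and 44.6% of genes were above 0.

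**Figure D1:**
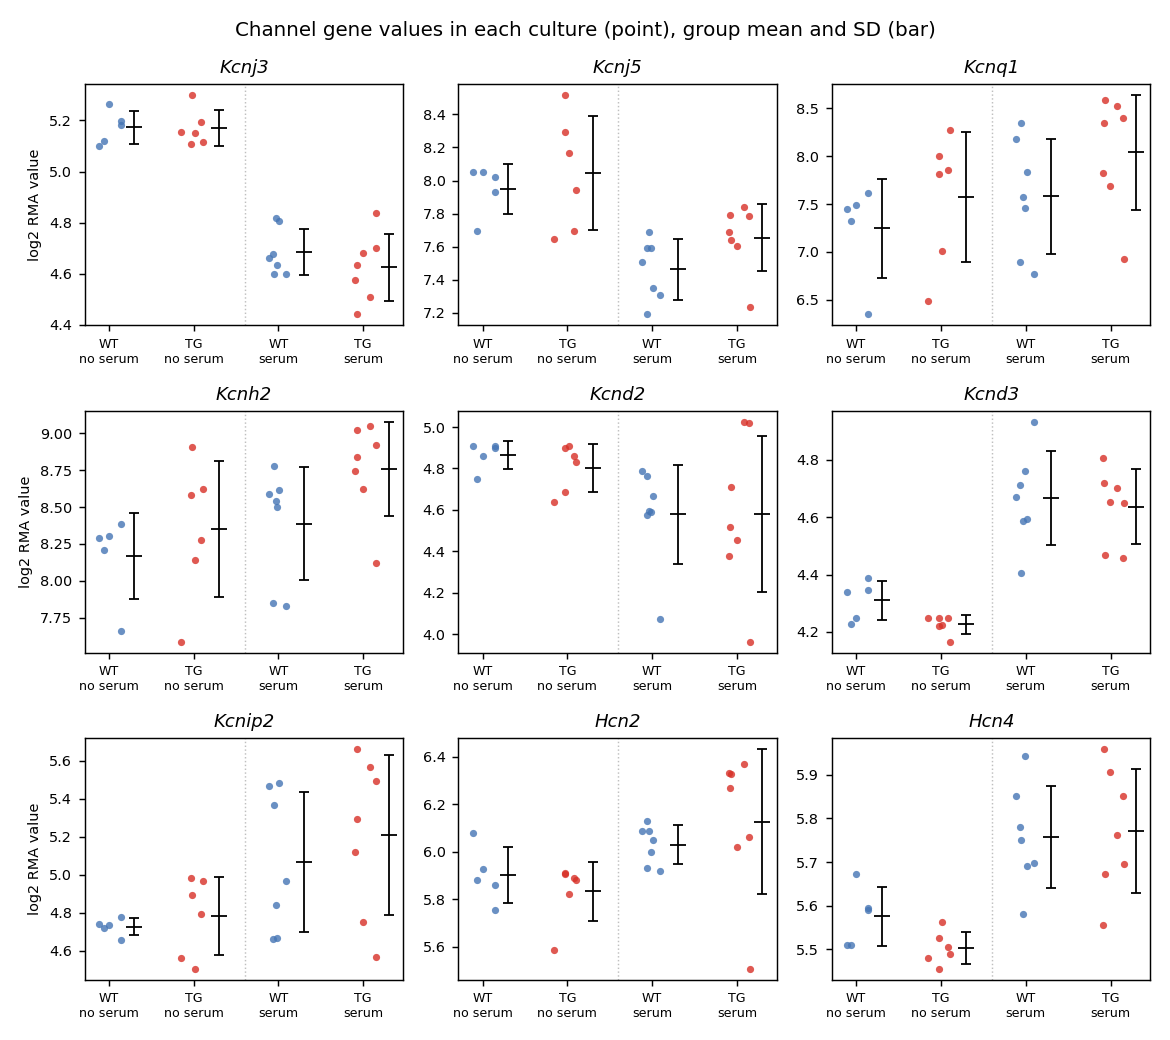
Log2 RMA value (vertical axis, with its own range in each panel) of the 9 channel genes in each of the 25 cultures (points), with group mean and SD (bars); WT is blue and TG red, and the dotted line parts the arrays without serum from those with serum, whose scales differ. In every panel the TG and WT cultures of a set overlap, and Kcnq1 has the widest spread within groups, with SDs of 0.51 to 0.68.

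The muscarinic potassium channel subunits differed little between TG and WT myocytes. Kcnj5, the GIRK4 subunit, was 8.05, 7.93, 8.05, 8.02 and 7.70 in the 5 WT cultures without serum, and the 6 TG cultures ran from 7.64 over a median of 8.05 to 8.52. The TG cultures lay on both sides of the WT range, 3 above it and 1 below, and the log2 difference was 0.093 (SE 0.15). With serum, Kcnj5 ran from 7.19 over 7.51 to 7.69 in WT and from 7.24 over 7.69 to 7.84 in TG cultures. In 6 of 7 TG cultures the value was above the WT mean, and the log2 difference was 0.19 (SE 0.10, limma adjusted p = 0.507), with a 95% confidence interval of -0.020 to 0.41.

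Kcnj3, the GIRK1 subunit that makes up the channel with GIRK4, had low values that hardly spread. The 5 WT cultures without serum were at 5.27, 5.18, 5.10, 5.20 and 5.12, and the 6 TG cultures ran from 5.11 over 5.15 to 5.30. With serum the WT cultures ran from 4.60 over 4.66 to 4.82 and the TG cultures from 4.44 over 4.64 to 4.84. Without serum 1 of the 6 TG cultures lay above all WT cultures and 0 below. With serum 1 of the 7 lay above and 3 below all WT cultures. The log2 difference was -0.0011 without serum, with a 95% interval of -0.10 to 0.098, and -0.059 with serum, with an interval of -0.20 to 0.081. The mean of Kcnj3 over all arrays was 4.88, and 4 of the 9 genes (Kcnj3, Kcnd2, Kcnd3 and Kcnip2) had a mean under 5, where background makes up much of an array's signal and compresses differences.

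The delayed rectifier genes showed the largest differences between TG and WT means among the 9. Kcnq1, the pore of the slow delayed rectifier, was 7.49, 6.35, 7.45, 7.62 and 7.33 in the WT cultures without serum. The TG cultures were at 8.0, 8.28, 7.81, 7.01, 6.49 and 7.85, so that 4 of 6 lay above every WT culture and the other two were among the 3 lowest of the set. The log2 difference was 0.33 (SE 0.33), 1.26-fold, with an interval of -0.40 to 1.06. It was 0.10 without WT culture 2 and 0.54 without TG culture 5. With serum, WT cultures ran from 6.77 over 7.58 to 8.35 and TG cultures from 6.93 over 8.34 to 8.59. In 6 of 7 TG cultures Kcnq1 was above the WT mean, and the log2 difference was 0.46 (SE 0.29, limma adjusted p = 0.586), 1.38-fold, with an interval of -0.16 to 1.09. The residual SD of Kcnq1 within groups was larger than that of 99.4% of all probe sets without serum and of 96.6% with serum.

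Kcnh2, which encodes the ERG1 pore of the rapid delayed rectifier, was 8.31, 7.66, 8.29, 8.38 and 8.21 in the WT cultures without serum and ran from 7.59 over 8.43 to 8.91 in the TG cultures. The log2 difference of 0.18 (SE 0.22) was smaller than the spread within either group, and it was 0.057 without WT culture 2 and 0.34 without TG culture 5. With serum the WT cultures ran from 7.83 over 8.54 to 8.78 and the TG cultures from 8.12 over 8.84 to 9.05. Here 4 of 7 TG cultures lay above all WT cultures and 6 of 7 above their mean. The log2 difference with serum was 0.37 (SE 0.17), 1.29-fold, with an interval of 0.0015 to 0.74, and it did not pass the adjusted test (limma adjusted p = 0.465).

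**Figure D2:**
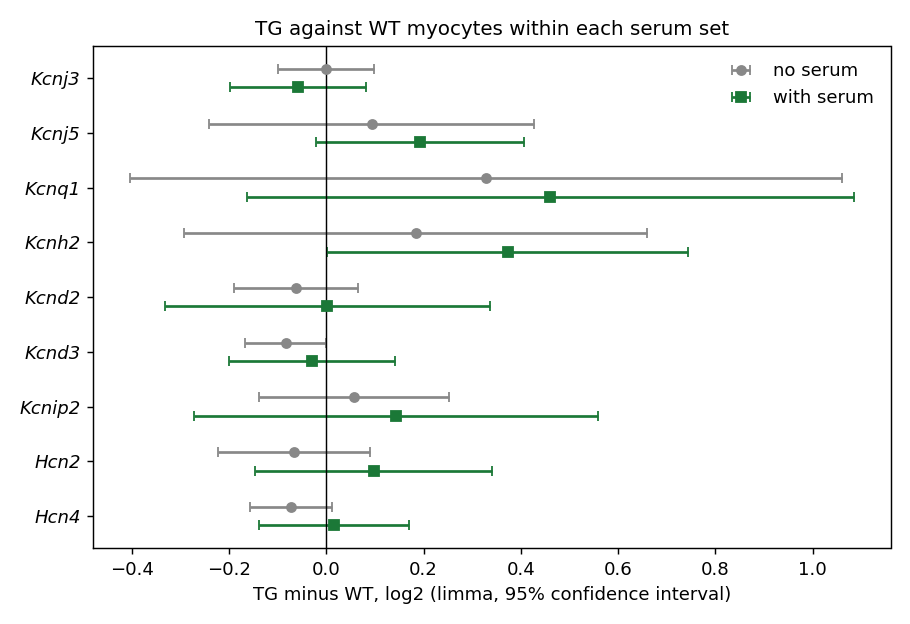
TG minus WT on the log2 scale (horizontal axis) for each channel gene, without serum (grey circles) and with serum (green squares), with 95% confidence intervals from limma. The intervals of Kcnq1, from -0.40 to 1.06 and from -0.16 to 1.09, are the widest, and those of Kcnd3 without serum and Kcnh2 with serum are the ones that leave out 0.

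The genes of the transient outward current were dim, and their differences were small. Kcnd3, the Kv4.3 pore, was 4.25, 4.39, 4.34, 4.35 and 4.23 in the WT cultures without serum, and all 6 TG cultures fell between 4.17 and 4.25, below the WT mean. The log2 difference was -0.084 (SE 0.038, limma adjusted p = 0.878), 3 of 6 TG cultures lay below every WT culture, and the value of Kcnd3 is at the dim end of the array. With serum Kcnd3 ran from 4.41 over 4.67 to 4.93 in WT and from 4.46 over 4.65 to 4.81 in TG cultures, a log2 difference of -0.030 (SE 0.080). Its sign with serum turned to 0.019 when the arrays were quantile normalized again.

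Kcnd2, the Kv4.2 pore, was 4.86, 4.90, 4.91, 4.91 and 4.75 in WT cultures without serum and ran from 4.64 over 4.85 to 4.91 in TG cultures. With serum both genotypes spread more widely, from 4.07 over 4.60 to 4.79 in WT and from 3.96 over 4.52 to 5.03 in TG cultures, and the means were 4.58 in both. The log2 difference was -0.063 (SE 0.058) without serum and 0.0023 (SE 0.16) with serum. Kcnip2, the KChIP2 subunit, was 4.74, 4.66, 4.74, 4.78 and 4.72 in the WT cultures without serum. The TG cultures spread on both sides of these, from 4.50 over 4.84 to 4.99, with 4 above and 2 below all WT cultures. With serum Kcnip2 ran from 4.66 over 4.97 to 5.48 in WT and from 4.56 over 5.30 to 5.66 in TG cultures, and the log2 differences were 0.057 (SE 0.089) and 0.14 (SE 0.19).

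No pacemaker channel gene passed the adjusted test. Hcn4 was 5.67, 5.59, 5.51, 5.59 and 5.51 in the WT cultures without serum, and the TG cultures ran from 5.46 over 5.50 to 5.56. Every TG culture was below the WT mean and 4 of 6 were below all WT cultures, and the log2 difference was -0.072 (SE 0.038, limma adjusted p = 0.878). With serum Hcn4 ran from 5.58 over 5.75 to 5.94 in WT and from 5.56 over 5.76 to 5.96 in TG cultures, a log2 difference of 0.015 (SE 0.072) with an interval of -0.14 to 0.17. Hcn2 was 5.93, 5.76, 6.08, 5.86 and 5.88 in WT cultures without serum and ran from 5.59 over 5.89 to 5.91 in TG cultures. With serum it ran from 5.92 over 6.05 to 6.13 in WT cultures, whereas 4 of 7 TG cultures lay above that range, up to 6.37, and TG culture 6 lay below it at 5.51. The log2 difference of Hcn2 was -0.067 (SE 0.071) without serum and 0.097 (SE 0.11) with serum.

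A change of the TG difference between the serum sets was not called for any of the 9 genes. In the limma fit over all 25 arrays, the change of the log2 difference from no serum to serum ran from -0.057 for Kcnj3 to 0.19 for Kcnh2. Every channel gene had an adjusted p of 1.00, where 0.00281% of all probe sets passed, and 0 of 9 had an unadjusted p under 0.05, against 4.26% of all. For Kcnq1 the change was 0.13 with an interval of -0.82 to 1.08, and for Hcn4 it was 0.088 with an interval of -0.096 to 0.27. Arrays of both sets entered this fit, so it shares the difference in scale between them.

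The spread of some channel genes between cultures went together with that of the sarcomere transcripts, which encode the contractile proteins of myocytes. The share of all genes that followed these transcripts as closely was not counted, so the relation is not shown to be particular to channel genes. The mean of the 15 sarcomere genes was low in 3 cultures of each set. Without serum these were WT culture 2, TG culture 5 and TG culture 4, at -0.88, -0.91 and -0.47 from the set mean on the log2 scale, and with serum WT culture 3, WT culture 4 and TG culture 6, at -0.77, -0.70 and -0.64 from it. In a bulk culture, fewer cells of a type and less RNA per cell cannot be told apart. Kcnq1 followed this mean most closely, with Pearson's r of 0.97 over the 11 cultures without serum and 0.99 over the 14 with serum (permutation p = 1e-05 in both, the smallest that 100000 permutations give, and adjusted p = 9e-05 over 18 relations). Spearman's rho was 0.95 and 0.99 (adjusted permutation p = 1.2e-04 in both). Without the 2 cultures farthest from the median, r was 0.92 and 0.98, and without the 3 lowest cultures it was 0.92 and 0.98 again. Within the TG cultures alone r was 0.99 in both sets, and within the WT cultures with serum it was 0.98.

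Kcnh2 moved in the same way. Its r with the sarcomere mean was 0.89 without serum (rho 0.81, adjusted permutation p = 9e-04 and 0.00980) and 0.96 with serum (rho 0.93, adjusted permutation p = 1.2e-04 for both). Without the 2 farthest cultures r was 0.62 and 0.93, and without the 3 lowest 0.55 and 0.85, so the relation without serum rested in part on the low cultures. For Kcnip2, r was 0.83 and 0.84 (rho 0.90 and 0.86, adjusted permutation p = 0.00351 and 9e-04 for r and 9.6e-04 in both sets for rho), and it rose to 0.92 and 0.91 without the 2 farthest cultures. Kcnj5 related to the sarcomere mean with serum, with r of 0.80 (rho 0.72, adjusted permutation p = 0.00229 and 0.0115), and without the 3 lowest cultures r was 0.38. Without serum its r was 0.30 (rho 0.26, adjusted permutation p = 0.475 and 0.547). Kcnd2 had an r of 0.74 with serum (rho 0.69, adjusted permutation p = 0.00442 and 0.0152) and 0.15 without (rho -0.13, adjusted permutation p = 0.717 and 0.798).

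The relations of the other 4 genes with the sarcomere mean were mixed. Hcn2 had an r of 0.77 with serum (rho 0.83, adjusted permutation p = 9e-04 and 9.6e-04), which was 0.84 without the 2 farthest cultures. Its r of 0.69 without serum (rho 0.47, adjusted permutation p = 0.0237 and 0.232) fell to 0.063 without them and so rested on those 2. Hcn4, the sinus node channel, had an r of -0.16 and 0.15 (rho -0.25 and 0.086, adjusted permutation p of 0.717 and 0.716 for r). Kcnd3 ran the other way, with an r of -0.41 and -0.55 (rho -0.33 and -0.44), but it did not pass after adjustment (permutation p = 0.284 and 0.0645 for r). For Kcnj3 r was 0.065 and -0.42 (rho 0.045 and -0.40, adjusted permutation p = 0.860 and 0.208 for r). Without the 2 farthest cultures its r was 0.080 and -0.67, and within the TG cultures with serum it was -0.79. No difference between these correlations was tested.

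**Figure D3:**
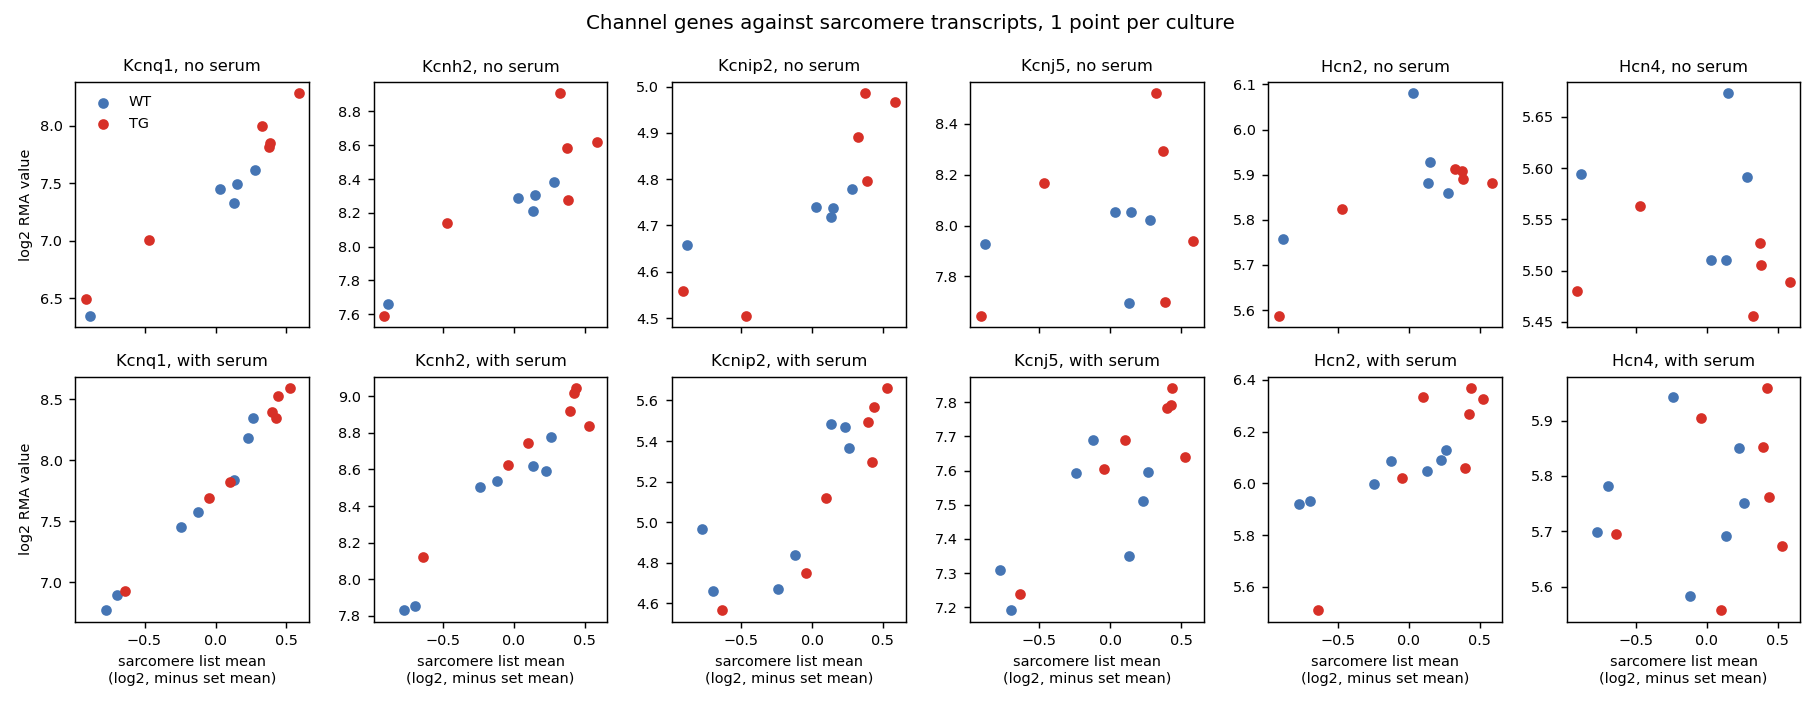
Log2 RMA value of 6 channel genes (vertical axes) against the mean of 15 sarcomere genes minus the set mean (horizontal axes, log2), 1 point per culture, WT blue and TG red, with arrays without serum in the upper row and with serum in the lower row. Kcnq1 and Kcnh2 climb with the sarcomere mean, with r of 0.97 and 0.89 without serum and 0.99 and 0.96 with serum, whereas Hcn4 shows no such slope, with r of -0.16 and 0.15.

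The channel genes also varied with each other. Over 72 pairs and sets examined, Kcnq1 and Kcnh2 had an r of 0.93 without serum (rho 0.89, adjusted permutation p = 0.00408 and 0.0072) and 0.94 with serum (rho 0.92, adjusted permutation p = 7.2e-04 and 0.00288), and r was 0.79 and 0.90 without the 2 farthest cultures. Kcnj5 and Kcnh2 had an r of 0.89 with serum (rho 0.85, adjusted permutation p = 0.00216 and 0.00696), and 0.81 without the 2 farthest. The 2 subunits of the muscarinic channel did not pair in this way, with an r of 0.37 between Kcnj3 and Kcnj5 without serum (rho 0.027, adjusted permutation p = 0.477 and 0.945), which was -0.32 without the 2 farthest cultures. With serum their r was -0.41 (rho -0.29, adjusted permutation p = 0.331 and 0.537). Kcnj3 and Hcn2 ran in opposite directions with serum, with an r of -0.69 (rho -0.59, adjusted permutation p = 0.0282 and 0.143), and -0.47 without the 2 farthest.

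The sarcomere transcripts lay to the higher side in TG myocytes. Of the 15 genes, 13 were above 0 in the log2 difference of TG from WT without serum (median 0.097) and 15 with serum (median 0.39), though none passed the adjusted test in either set. At an unadjusted p under 0.05 there was 1 of 15 with serum, against 10.7% of all probe sets. It was Myl3, a ventricular light chain, at 0.57 (SE 0.23, limma adjusted p = 0.414). With the sarcomere mean as a covariate, a fit added after the data were seen, the log2 difference with serum was 0.097 for Kcnh2 (SE 0.067) and -0.027 for Kcnq1 (SE 0.061). Without serum the same fit gave 0.21 for Kcnq1 (SE 0.059, limma adjusted p = 0.570) and 0.12 for Kcnh2 (SE 0.10). When the 3 cultures low in sarcomere transcripts were left out, Kcnq1 differed by 0.52 without serum (SE 0.11, limma adjusted p = 0.213) and by 0.35 with serum (SE 0.21, limma adjusted p = 0.597). Then 3 of the 9 genes, Kcnq1, Kcnh2 and Kcnip2, had an unadjusted p under 0.05 without serum, against 9.87% of all probe sets in the same fit. With serum 2 of 9 did, Kcnj5 and Kcnh2, against 10.2% of all, and 0 of 9 passed the adjusted test in either set. Cultures were left out by the sarcomere mean, which Kcnq1, Kcnh2 and Kcnip2 followed without serum (r of 0.97, 0.89 and 0.83). Neither these counts nor the smaller SEs of Kcnq1 are therefore independent of that choice.

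Markers of other cell types were counted in the same way. All 15 endothelial markers were lower in TG than in WT cultures with serum (median -0.20), with list means per culture of 5.91 to 6.61 in WT and 5.65 to 6.51 in TG cultures, and 4 of 15 were higher without serum (median -0.026). Of 12 epicardial markers, 10 were lower in TG cultures without serum (median -0.21) and 9 with serum (median -0.18), with list means of 7.01 to 7.65 in WT and 6.95 to 7.39 in TG cultures with serum. An unadjusted p under 0.05 was found for 2 and 5 of these 12, all lower, against 5.64% and 10.7% of all probe sets. For the endothelial markers it was found for 1 and 2 of 15, all lower. Fibroblast markers had medians of -0.076 and -0.058, with 10 and 8 of 12 lower. All 7 ventricular markers were higher in TG cultures in both sets (medians 0.19 and 0.54), of which 1, Hey2 itself, passed the adjusted test, with serum. Myl2 and Myl3 of these 7 are also among the sarcomere genes. An unadjusted p under 0.05 was found for 1 and 4 of the 7, all higher, against the same shares of all probe sets. The 10 atrial markers had medians of -0.016 and 0.023, the 9 smooth muscle and pericyte markers 0.026 and 0.035, the 9 macrophage and blood markers -0.14 and -0.047, and the 9 neuron and glia markers -0.045 and -0.070. Apart from Hey2 with serum, none of these genes passed the adjusted test. Whether the makeup of the cultures had a part in the differences of Kcnq1 and Kcnh2 was not tested. The fits with the sarcomere mean do not measure it, as the sarcomere genes themselves lay to the higher side in TG myocytes.

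The genes whose deviations from the group means were most like those of a channel gene were described by Pearson's r over the 25 arrays, a measure that shares the arrays and their culture makeup. For Kcnq1 these were Stat3 (r = 0.989), Shroom3 (0.984) and Clip4 (0.982). For Kcnh2 they were Aldh6a1 (0.971), Afap1l1 (0.970) and Tnni1, the slow skeletal troponin I of the fetal heart (0.964). For Kcnj5 they were Gm5532 (0.861), Cpt2, the mitochondrial carnitine palmitoyltransferase (0.860), and Chn1 (0.846). The closest genes were less alike for Hcn2, where they were Phyhip (0.835), Gm10030 (0.833) and Azgp1 (0.832), and for Hcn4, where they were Muc4 (0.790), 6030498E09Rik (0.788) and Gm10536 (0.782).

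Serum was examined by within-array percentile, the share of the 19938 genes that a gene exceeded on its own array, since log2 values could not be set side by side. In WT myocytes, 5 of the 9 channel genes passed the exact permutation test at an adjusted p under 0.05, 1 higher and 4 lower with serum, where 56.9% of all genes passed, 28.5% higher and 28.4% lower. In TG myocytes 4 of 9 passed, 1 higher and 3 lower, where 62.1% of all genes passed, 31.0% higher and 31.1% lower. Neither share of passing channel genes was larger than that of all genes. The smallest two-sided p that these numbers of arrays allow was 0.00126 in WT and 5.83e-04 in TG myocytes. Adjustment was over all 19938 genes. Each percentile difference compares 1 gene across arrays, and a percentile can also shift when other genes of the array change.

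Both subunits of the muscarinic channel stood lower with serum. In WT myocytes Kcnj5 was at percentiles 83.2, 82.1, 83.5, 83.02 and 78.5 without serum and from 64.5 over 70.3 to 71.2 with serum. In TG myocytes it ran from 77.2 over 83.3 to 87.9 without serum and from 64.6 over 71.7 to 73.7 with serum. No array with serum reached an array without serum in either genotype, and the mean percentile fell by 13.6 in WT and fell by 11.7 in TG myocytes (exact permutation, adjusted p = 0.00400 and 0.00194). Kcnj3 ran from 41.4 to 44.1 without and from 29.7 to 34.4 with serum in WT, and from 41.9 to 45.4 and from 28.6 to 35.0 in TG myocytes, again without overlap. Its mean percentile fell by 11.03 in WT and fell by 11.7 in TG myocytes (exact permutation, adjusted p = 0.00400 and 0.00194). Unlike Kcnj5, Kcnj3 is dim, with a mean of 4.88, and it did not enter the ranking of bright genes alone. The part of the difference in scale between the sets in its rank was not tested. Ranks without overlap occurred in 37.8% of all genes in WT and 37.0% in TG myocytes, with 19.3% and 19.0% lower with serum.

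The Kv4 pores of the transient outward current moved in opposite directions by rank. Kcnd2 was at percentiles 37.6, 37.1, 38.1, 37.6 and 35.4 in WT myocytes without serum and from 23.3 over 31.0 to 32.8 with serum, and its mean fell by 7.30 without overlap (exact permutation, adjusted p = 0.00400). In TG myocytes it ran from 33.4 over 37.3 to 39.1 without and from 22.6 over 29.9 to 37.4 with serum. These ranges overlapped, and the mean fell by 5.83 (exact permutation, adjusted p = 0.0422). The call in TG myocytes was lost in 9 of the 13 fits that left out 1 array, with the mean falling by between 4.47 and 6.94, and it was lost without TG cultures 4 and 5 of the set without serum (fall of 6.21, exact permutation adjusted p = 0.0799). Kcnd3 was at percentiles 24.2, 26.5, 25.9, 25.4 and 24.0 in WT myocytes without serum and from 27.5 over 30.8 to 35.7 with serum, higher by 5.90 without overlap (exact permutation, adjusted p = 0.00679). In TG myocytes it rose by 7.79, from between 22.2 and 24.5 to between 27.7 and 33.7 (exact permutation, adjusted p = 0.00312). Both genes lie among the dim probe sets, and the lowest value on the arrays was 2.45 without serum and 0.99 with serum. The part of this difference in their ranks was not tested, and neither gene entered the ranking of bright genes alone.

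Of the remaining channel genes, Hcn2 passed the test in WT myocytes and the others did not. Hcn2 fell by 2.73 percentiles there, from between 50.3 and 54.9 to between 48.2 and 51.3, with overlapping ranges (exact permutation, adjusted p = 0.0163), and differed by -0.78 in TG myocytes (exact permutation, adjusted p = 0.742). With the culture number as a replicate block, in limma on the percentiles, the call in WT myocytes was lost (difference -3.06, adjusted p = 0.0627). Hcn4 differed by -1.78 in WT and by -0.61 in TG myocytes (exact permutation, adjusted p = 0.0507 and 0.535), and limma on the percentiles called it in WT myocytes (adjusted p = 0.0487). Kcnq1 differed by -1.48 and 0.29 (exact permutation, adjusted p = 0.810 and 0.963), Kcnh2 by -3.23 and -0.57 (exact permutation, adjusted p = 0.335 and 0.845) and Kcnip2 by 2.69 and 3.66 (exact permutation, adjusted p = 0.360 and 0.275). For Kcnq1 the percentiles spread from 58.4 to 77.4 in WT cultures without serum and from 58.4 to 81.2 with serum, so that a shift of a few percentiles was not detectable.

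**Figure D4:**
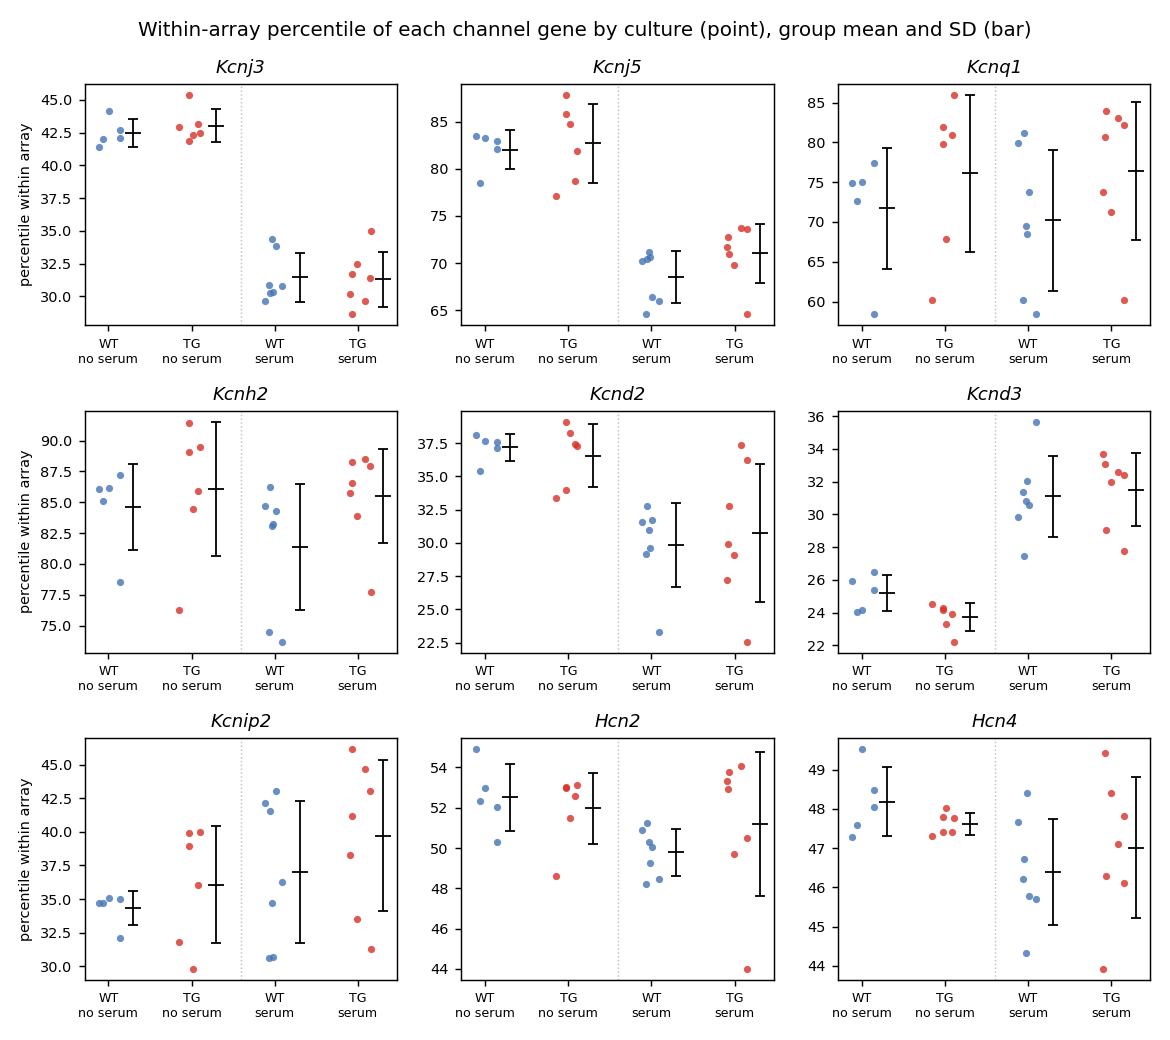
Percentile within its own array (vertical axis, with its own range in each panel) of each channel gene in the 25 cultures (points), with group mean and SD (bars), WT blue and TG red, without serum left and with serum right of the dotted line. Kcnj3 and Kcnj5 stand lower with serum in both genotypes without overlap, with means that fell by 11.03 to 13.6 percentiles, and Kcnd3 stands higher by 5.90 in WT and 7.79 in TG myocytes. Kcnj3 and Kcnd3 are dim, with a mean under 5.

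Among the promoters of the 9 genes, those of Kcnd3 and Kcnd2 are shown because these related pores moved in opposite directions by rank. Of the 9 genes, 8 matched a promoter in the RefSeq table of build GRCm38.p6, and Kcnq1 had no entry. The 250 bases before the start site were searched on both strands, except for the TATA box. The first motif was the E box CANNTG, which basic helix-loop-helix factors bind, and the next was its form CACGTG. Hairy-related repressors such as Hey2 bind the latter and also the letters CACGCG, which read CGCGTG on the opposite strand. One form of the GATA factor site, AGATAA, which reads TTATCT on the opposite strand, was searched as well. The last motif was the TATA box, as TATAAA on the strand of the gene alone. In the sequences, matches to CANNTG and to CACGCG or CGCGTG are in capitals. Kcnd3 is on the plus strand at chr3:105451640-105451889, and Kcnd2 is on the plus strand at chr6:21215096-21215345.
Kcnd3: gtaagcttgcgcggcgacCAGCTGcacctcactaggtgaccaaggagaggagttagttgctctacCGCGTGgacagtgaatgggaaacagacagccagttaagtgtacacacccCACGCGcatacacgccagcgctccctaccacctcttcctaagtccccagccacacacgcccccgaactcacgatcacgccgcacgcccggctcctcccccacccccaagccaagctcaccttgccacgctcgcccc
Kcnd2: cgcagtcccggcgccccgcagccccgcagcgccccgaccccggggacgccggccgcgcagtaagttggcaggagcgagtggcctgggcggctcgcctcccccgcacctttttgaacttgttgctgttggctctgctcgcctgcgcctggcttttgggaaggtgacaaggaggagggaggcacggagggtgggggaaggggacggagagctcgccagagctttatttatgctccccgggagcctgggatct
CACGCG or CGCGTG was found in 1 of the 8 promoters, that of Kcnd3, with matches beginning 185 and 136 bases before the start site, and in 7.62% of 32841 promoters of the same length. The E box CANNTG, of which CACGTG is one form, was in 5 of the 8 and in 66.2% of all. Its form CACGTG was in 0 of 8 and in 6.02% of all, the GATA form in 0 of 8 and 9.99% of all, and TATAAA in 0 of 8 and 7.59% of all. The median GC content was 67.8% in the 8 promoters and 52.4% in all. A match is a description of letters in this window and no evidence of binding.

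The other ion channel genes of the heart had no member past the adjusted test between TG and WT myocytes either. Of 29 other potassium channel genes measured, 11 were above 0 without serum (median log2 difference -0.034) and 14 with serum (median -0.032). Against 5.64% and 10.7% of all probe sets, 1 and 4 of these 29 genes had an unadjusted p under 0.05. Without serum the 2 with the smallest p were Kcna5, the pore of the ultrarapid current, at -0.094 (SE 0.033), and Kcne4, a modulatory subunit, at -0.25 (SE 0.12). With serum they were Kcna4, the pore of the slow transient outward current, at 0.51 (SE 0.13, limma adjusted p = 0.290), and Kcnk3, the two-pore channel TASK1, at 0.27 (SE 0.095). The 8 sodium channel genes measured were all below 0 without serum (median -0.045) and 6 were below 0 with serum (median -0.090). With serum 3 of these had an unadjusted p under 0.05, against 10.7% of all probe sets, among them the β subunit genes Scn4b at -0.39 (SE 0.12, limma adjusted p = 0.331) and Scn3b at -0.37 (SE 0.14, limma adjusted p = 0.387), and 6 of the 8 had a mean under 5.

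Of the 11 other pacemaker and calcium channel genes, 7 were above 0 without serum and 6 with serum. Against 5.64% and 10.7% of all probe sets, 0 and 3 of these 11 genes had an unadjusted p under 0.05. Those with the smallest p with serum were Cacna1g, a T-type calcium channel, at 0.46 (SE 0.17, limma adjusted p = 0.367), and Cacnb2, a calcium channel β subunit, at -0.16 (SE 0.063). Without serum they were Trpm4, a calcium-activated cation channel, at -0.096 (SE 0.076), and Bves, a cyclic AMP-binding membrane protein, at 0.28 (SE 0.30). The 14 genes of the muscarinic and adenosine inputs to the GIRK channel were above 0 in 10 cases without serum (median 0.059) and in 9 with serum (median 0.041). Chrm2, the muscarinic receptor of the heart, was at 0.54 with serum (SE 0.23, limma adjusted p = 0.435), next to Rgs6, which speeds the closing of the channel, at 0.24 (SE 0.079). Without serum, Gng5, a G protein γ subunit, was at 0.20 (SE 0.064), and Gnai1, an inhibitory α subunit, at 0.13 (SE 0.071).

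The transcription factors that pattern chambers and conduction tissue were above 0 in 18 of 22 cases without serum (median 0.061) and in 13 of 22 with serum (median 0.062), with 0 past the adjusted test. With serum the 2 with the smallest p were Shox2, a sinus node factor, at -0.26 (SE 0.083, limma adjusted p = 0.328), and Irx3, an Iroquois factor of the ventricular conduction system, at 0.56 (SE 0.19, limma adjusted p = 0.346). Without serum they were Etv1 at 0.23 (SE 0.10) and Hand2 at 0.19 (SE 0.088). The 11 markers of conduction cells had medians of -0.013 and -0.12, and 0 and 3 had an unadjusted p under 0.05, against 5.64% and 10.7% of all probe sets.

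**Figure D5:**
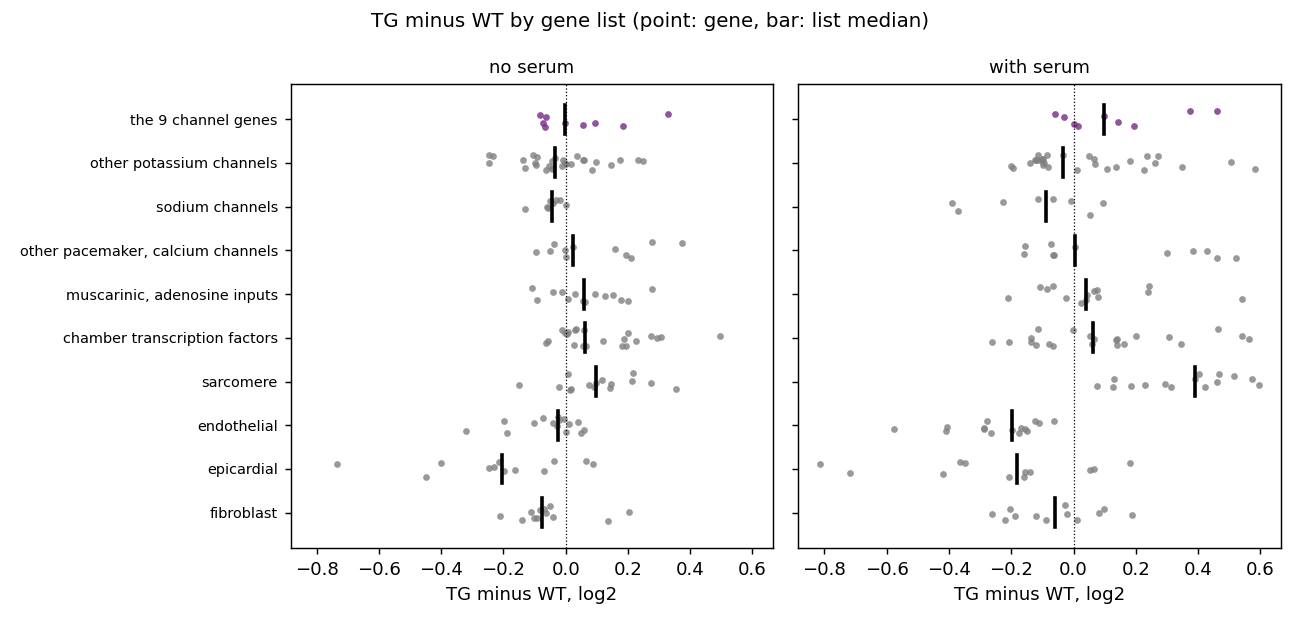
TG minus WT on the log2 scale (horizontal axis) of every measured gene (points) in the 9 channel genes, 5 wider lists and 4 lists of cell type markers (rows), with list medians as bars, without serum on the left and with serum on the right. With serum the sarcomere median stands at 0.39, the endothelial one at -0.20 and that of the 9 channel genes at 0.097.

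By within-array rank, 5 of 8 sodium channel genes passed and stood lower with serum in WT and 6 of 8 in TG myocytes, where 28.4% and 31.1% of all genes did, and 1 of 8 stood higher in each. Of these 8 genes, 6 had a mean under 5, at the dim end where the lowest values of the sets differ. Scn7a fell by 12.2 percentiles in WT and fell by 11.6 in TG myocytes, and Scn3a fell by 9.59 in WT and fell by 9.62 in TG myocytes (exact permutation, adjusted p = 0.00400 in WT and 0.00194 in TG for each). Scn8a stood higher by 10.4 and 7.44 (exact permutation, the same adjusted p). Of 29 other potassium channel genes, 6 stood higher and 12 lower in WT myocytes and 9 each way in TG myocytes. Over all genes 28.5% passed and stood higher and 28.4% lower in WT, and 31.0% and 31.1% in TG myocytes. Kcne4 fell by 15.4 in WT and fell by 14.9 in TG myocytes, and Dpp10, an accessory subunit of the Kv4 pores, fell by 12.2 and fell by 12.3 (exact permutation, adjusted p = 0.00400 and 0.00194 for each). The accessory gene Dpp6 fell by 9.48 and fell by 10.1 as well, so that both of these partners of Kcnd2 and Kcnd3 stood lower with serum. Hcn3, the relative of Hcn2 and Hcn4, fell by 7.70 and fell by 8.23 (exact permutation, the same adjusted p). Of the 14 GIRK inputs, 3 stood higher and 3 lower in WT and 2 and 3 in TG myocytes, where Rgs5, an inhibitor of G protein signalling that also marks pericytes, fell by 16.5 and fell by 17.2 percentiles. Of the 22 transcription factors, 2 stood higher and 2 lower in WT and 2 and 7 in TG myocytes. The shares of all genes given above stand beside the counts of both of these lists as well.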

How the data were processed

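RNA of 25 cultures of neonatal mouse cardiac myocytes was hybridised to Affymetrix Mouse Gene 1.0 ST arrays, 1 array per culture. Robust Multichip Analysis was run by the authors in Affymetrix Expression Console 1.1, and the deposited table holds its log2 values for 35557 probe sets. Whether the arrays with and without serum were normalized together is not given in the sources used here. Of the probe sets, 21789 carried 1 gene symbol, 1621 several and 12147 none here. Among the probe sets named for a gene alone, the one whose mean across arrays was highest stood for it, which gave 19938 genes. The array has no read depth.

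Within each serum set, TG was compared with WT by limma 3.58.1 in R 4.3.3 (lmFit, eBayes), and p was adjusted over all probe sets by the Benjamini-Hochberg method at 0.05. The change of the TG difference between sets came from 1 limma fit over 25 arrays. Serum was compared by within-array percentile with a two-sided exact permutation test for each gene, adjusted over 19938 genes (Python 3.11.15, scipy 1.17.1). Correlations across cultures used 100000 permutations. Intervals are 95% intervals. A mean under 5 was called dim. The methods were tested on simulated data before use.

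The 9 genes and the lists of other channels and cell type markers were chosen with earlier results of these data known, and 202 of 215 list entries were measured. Named were all 9 genes, Hey2 and, of each wider list, up to 4 members past the adjusted test or otherwise the 2 with the smallest p, and for each channel gene with a mean of 5 or more the 3 genes most like it. Other marker genes were named after their values were seen. Alternatives were quantile normalization again, median centring, omission of dim probe sets, only those named for 1 gene, 1 fit over 25 arrays, array weights, a mean-variance trend, probe sets averaged per gene, a replicate block by culture number, each array left out in turn, and, for ranks, other sets of genes ranked and limma on the percentiles. The sarcomere mean as a covariate, leaving out 3 cultures with serum and, by rank, the 3 cultures of each set low in sarcomere transcripts were added after the data were seen.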

Additional observations from a re-analysis of the deposited data

Results flagged for a closer look

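Each of the 9 genes was examined in each group of cultures, 36 cases in all. In 7 of them 1 culture lay far from the others of its group, by Dixon's criterion at the 95% level. Chance alone meets it in about 1 of 20 separate cases. These 36 share cultures and several of the genes varied together, so their number cannot be set against that rate. Kcnq1 was 6.3473 in WT culture 2 without serum, where the other WT cultures ran from 7.3271 to 7.6162, and Kcnh2 was 7.6596 in the same culture, where the others ran from 8.2082 to 8.3824. That culture was also among the 3 low in sarcomere transcripts in its set. Hcn2 was 5.587 in TG culture 5 without serum, with the others at 5.8238 to 5.912, and 5.5082 in TG culture 6 with serum, with the others at 6.0194 to 6.3694. Kcnj5 was 7.2379 in the latter culture, with the others at 7.6037 to 7.8417, and both of these cultures were low in sarcomere transcripts too. Kcnd2 was 4.0728 in WT culture 3 with serum, again a culture low in sarcomere transcripts, with the others at 4.5747 to 4.7895. Kcnd3 was 4.1664 in TG culture 2 without serum, with the others at 4.2215 to 4.2499, a gap of under 0.1 in a dim gene. The culture in that case had the highest sarcomere mean of its set, at 0.59 above the set mean.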

How the results depend on the processing

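No channel gene of the 9 passed the adjusted test between TG and WT myocytes under any alternative run, and no direction of Kcnq1, Kcnh2 or Kcnj5 with serum turned, except Kcnq1 with the sarcomere mean as a covariate (-0.027). The same covariate, added after the data were seen, turned Kcnd2 (-0.21), Kcnd3 (0.039), Kcnip2 (-0.13) and Hcn2 (-0.044) with serum, where 41 probe sets were called in place of 3. Kcnj3 without serum turned to 0.035 after quantile normalization again, 0.030 with median centring, 0.0028 with array weights and 0.010 without the 3 low cultures, where 1 probe set was called in place of 0. Kcnd3 with serum turned to 0.019 after quantile normalization, 0.020 with median centring and 0.030 without the 3 low cultures. With serum the probe sets called were 5 with median centring, 5 with dim probe sets left out, 141 in 1 fit over 25 arrays and 1 with probe sets averaged per gene. For the change of the TG difference 1 probe set was called, against 0 after quantile normalization or with only probe sets named for 1 gene, 6 with median centring or array weights and 2 with dim ones left out. By rank, 19530 probe sets in WT and 21356 in TG were called when all were ranked, and 6476 and 7136 genes when only bright ones were, with 2 and 1 channel genes past the test, since the dim 4 were then not ranked. Kcnq1 in TG by rank turned to -5.74 without TG cultures 4 and 5 of the set without serum, and to -3.04 when TG culture 6 with serum was left out as well, an alternative added after the data were seen, under which Kcnd2 in TG (-4.85) was no longer called. Channel genes with an unadjusted p under 0.05, 1 in each set, were 0 in both after quantile normalization, in 1 fit over 25 arrays or with the block. Without serum they were 0 with median centring or dim probe sets left out and 3 without the low cultures, and with serum 2 with median centring, 3 with array weights, 2 without the low cultures and 0 with the covariate. The cause of each change was otherwise not tested.

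Leaving out 1 array at a time gave 0 probe sets called without serum, 1 to 3 with serum and 0 to 4 for the change of the TG difference, 0 of 9 channel genes in all of these, 10310 to 11263 genes by rank in WT with 5 to 6 channel genes, and 11758 to 12348 in TG with 3 to 4. Differences that turned ran from -0.016 to 0.051 for Hcn4, -0.082 to 0.11 for Kcnd2 and -0.073 to 0.015 for Kcnd3 with serum, from -0.027 to 0.022 for Kcnj3 and -0.0020 to 0.17 for Kcnj5 without serum, and for the change of the TG difference from -0.019 to 0.17 for Kcnd2 and -0.084 to 0.36 for Kcnq1. By rank they ran in TG from -1.45 to 0.42 for Hcn2, -2.53 to 0.73 for Kcnh2 and -2.88 to 3.0 for Kcnq1, and in WT from -4.79 to 0.50 for Kcnq1. Kcnh2 with serum had an unadjusted p under 0.05 only in part of these fits, and 0 to 4 channel genes did with serum, 4 without TG culture 6. Culture numbers did not pair cultures: residuals of cultures with 1 number correlated at -0.45 to 0.15 without serum, -0.36 to 0.062 with serum, and -0.24 to 0.19 across the sets. With the culture number as a replicate block, 0 probe sets were called without serum and 1 with serum, 0 channel genes had an unadjusted p under 0.05, the rank of Hcn2 in WT was no longer called, and Kcnq1 in TG turned to -0.66.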
